A study of Mus musculus with 19 samples.

Results

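The genes described here are the enzymes that build purine and pyrimidine nucleotides from small precursors, in mouse liver tumours. The members were taken by name: Cad, Umps and Dhodh for pyrimidines, Ppat, Gart, Pfas, Paics and Atic for the purine route to inosine monophosphate (IMP), and Impdh1 and Impdh2 for the step from IMP towards guanine nucleotides. These 10 genes were found by symbol among the 39179 gene identifiers of the deposited count table, and all 10 were expressed well enough to be tested among 12462 genes.

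RNA was sequenced from livers of male mice that were heterozygous for Ctnnb1tm1Mmt, a conditional allele of the β-catenin gene. The mice were homozygous for Gt(ROSA)26Sortm1(MYC)Djmy, a conditional human MYC transgene at the Rosa26 locus. By the study's account, Cre recombinase introduces both alterations, by recombining the β-catenin allele and switching on the transgene in the cells it reaches. Cre came from the adeno-associated virus (AAV) AAV8.TBG.PI.Cre.rBG, whose TBG promoter restricts it to hepatocytes. The labels list 13 tumours and 3 control livers at 640000000 genome copies (GC) per mouse, and 3 high AAV control livers at 200000000000 GC per mouse. Only tumours 04 to 13 could be matched to a column of the table, so all values below come from these 10 tumours of 1 group and none is set against control liver. The question was how far tumours that arose in this way differ from each other. The labels give no age, and by the study's methods the virus was given to adult mice. The column names also carry a tag, with 5 values in 3 families: RMH4 (tumours 04 to 06), RMH18 (07 and 08) and RMH35 (09 to 13). Tumour 04 has a tag of its own. Tumours 05 and 06 share 1, as do 07 and 08, 09 and 10, and 11 to 13. No label explains these tags. Tumours that share 1 may come from the same mouse, so the p-values below measure only the spread between these samples.

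De novo synthesis assembles the pyrimidine ring from glutamine, bicarbonate and aspartate before ribose phosphate is attached, whereas the purine ring is built step by step on ribose phosphate with glycine, glutamine, aspartate and formyl groups carried by folate. Dividing cells depend on both routes for RNA and DNA, and several of the enzymes are classical targets of MYC. In the liver, which also exports purines, the routes run beside salvage of free bases and nucleosides.

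Total gene counts ranged from 11687034 in tumour 07 to 36964427 in tumour 13, with a median of 16664597. At these depths 3 counts equal between 0.0812 and 0.257 CPM (counts scaled to a common library total), which covers counting error only, and the lowest count of any member in any tumour was 154. Albumin (Alb) was at 13016 to 22960 CPM, so hepatocyte RNA was abundant in every library. The summed level of the 5 blood markers ranged from 101 to 6181 CPM and was highest in tumour 07. Structured RNAs that carry no polyA tail, counted as a sign of how the library was made, summed to 48.3 to 80.4 CPM in tumours 05, 06 and 07 and to 2.12 to 7.70 CPM in the other 7, here per plain library total, whereas the other CPM values include a scaling factor for library composition (TMM). In whole tumour tissue, fewer cells of a type and less RNA per cell cannot be told apart.

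Since MYC and its partner bind the E-box CACGTG, the promoter windows of the members were searched for it. RefSeq windows on GRCm38.p6, from 250 bases before to 50 bases after a start site, were at hand for 8 of the 10 members, with none for Dhodh and Pfas. CACGTG, which reads the same on both strands, was found in the windows of 3 members (Paics, Atic and Impdh2). Over all 27025 genes with a window, 8.09% held it. The GC box GGGCGG, searched on both strands (as GGGCGG or CCGCCC), was found in all 8, against 38.2% of all genes, and CCAAT (or ATTGG) in 4 of 8 (Gart, Paics, Atic and Impdh2), against 41.1%. A match is a description of these letters and not a bound site. The stretches that hold the E-box are given from 5′ to 3′ on the plus strand, with capitals for CACGTG and for the GC box in either direction. For Atic (chr1:71556906-71557155) and Impdh2 (chr9:108560186-108560435) these are the 250 bases before the start site, and for Paics (chr5:76951087-76951116) only 30 bases around the E-box are shown, since its window lies inside the neighbouring gene Ppat.
Atic: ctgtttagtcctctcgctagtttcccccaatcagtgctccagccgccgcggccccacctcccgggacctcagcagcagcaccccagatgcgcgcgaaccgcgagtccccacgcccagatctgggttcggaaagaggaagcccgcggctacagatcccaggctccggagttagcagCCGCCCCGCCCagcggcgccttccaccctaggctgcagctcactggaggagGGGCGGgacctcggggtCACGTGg
Impdh2: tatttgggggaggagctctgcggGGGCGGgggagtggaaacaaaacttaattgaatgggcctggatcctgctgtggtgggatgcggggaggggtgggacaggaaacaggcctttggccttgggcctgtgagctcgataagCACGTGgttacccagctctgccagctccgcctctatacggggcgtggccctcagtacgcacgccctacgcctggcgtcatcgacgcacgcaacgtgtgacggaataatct
Paics: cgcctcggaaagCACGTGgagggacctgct
The E-box began 7 bases before the start site in Atic, 110 bases before it in Impdh2 and 203 bases before it in Paics.

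The level of each gene was first compared across the 10 tumours. Cad and Impdh1 spread most and Dhodh least. The SD of log2 CPM was 0.66 for Impdh1 and 0.47 for Cad, and between 0.26 and 0.37 for the other 8. The median SD of the 10 members was 0.33, the same as over all 12462 tested genes (0.33), and 4 of the 10 exceeded the latter. As a list these enzymes thus had about the same median spread as all tested genes, in a comparison not matched for expression level.

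**Figure D1:**
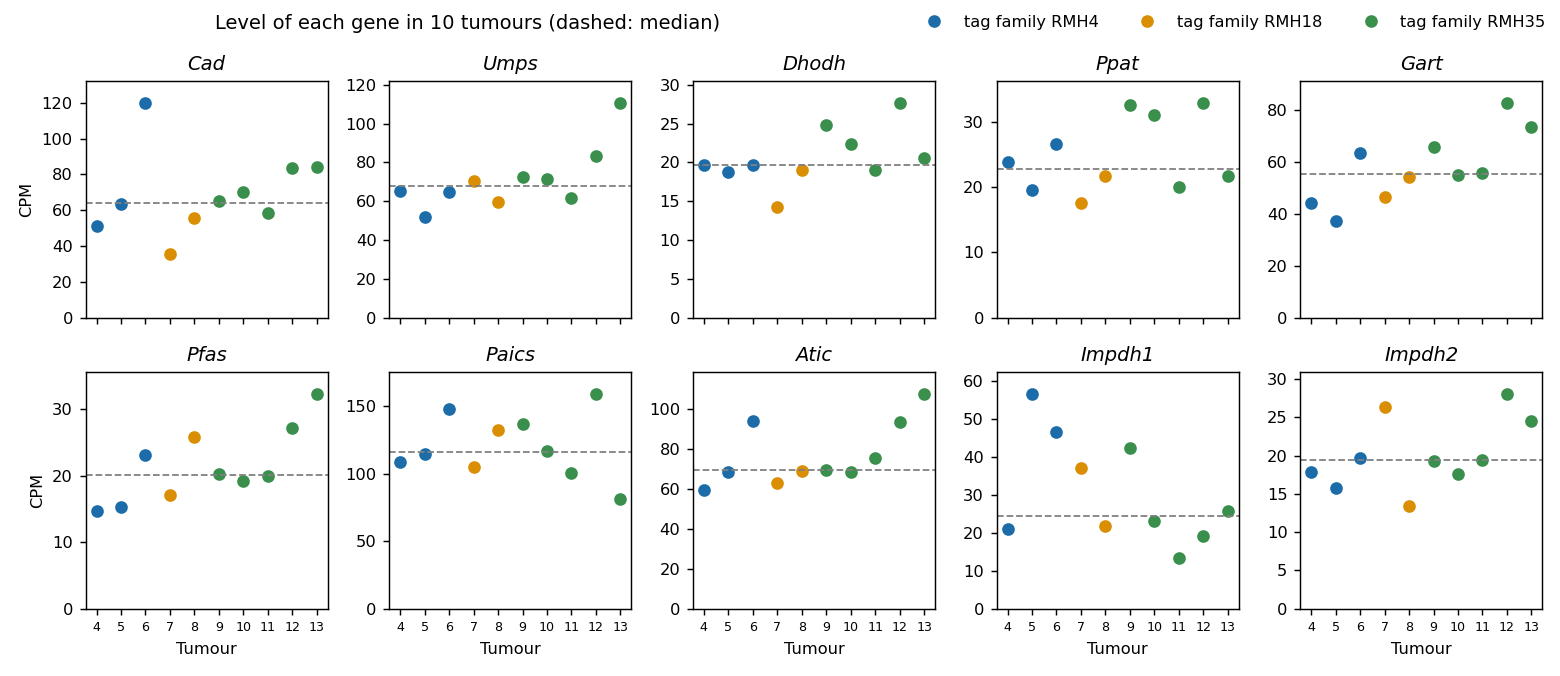
Level of each of the 10 genes in CPM (vertical axes, starting at 0) in tumours 4 to 13 (horizontal axes), with colours for the tag families and a dashed line at the median. Tumour 12 was highest for 5 genes and tumour 13 for 3, tumour 06 was highest for Cad at 120 CPM and tumour 05 for Impdh1 at 56.6 CPM.

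Cad (ENSMUSG00000013629, chr5:31054620-31078479) encodes the trifunctional enzyme that opens pyrimidine synthesis, from carbamoyl phosphate to dihydroorotate. Its level was 35.6 CPM at the lowest (tumour 07), 64.2 at the median and 120 at the highest (tumour 06), a 3.37-fold range. Tumour 06 stood above all others, the next being tumour 13 at 84.2 CPM, while tumour 07 lay below tumour 04 at 51.2. Dhodh (ENSMUSG00000031730, chr8:109593244-109608699), the mitochondrial enzyme that oxidises dihydroorotate to orotate, ranged from 14.2 CPM in tumour 07 through a median of 19.7 to 27.7 in tumour 12. Umps (ENSMUSG00000022814, chr16:33954782-33967038), which turns orotate into uridine monophosphate, ranged from 52.0 CPM in tumour 05 through a median of 68.0 to 111 in tumour 13. Tumour 13 was the high one here, with tumour 12 next at 83.3 CPM. The 3 pyrimidine genes thus peaked in 3 different tumours, and Cad and Dhodh shared the lowest one.

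Ppat (ENSMUSG00000029246, chr5:76913249-76951578) encodes the amidotransferase of the committed purine step. Its level ranged from 17.6 CPM in tumour 07 through a median of 22.7 to 33.0 in tumour 12, with tumour 09 almost as high at 32.5. Gart (ENSMUSG00000022962, chr16:91621395-91646972), a trifunctional enzyme of the early ring-building steps, ranged from 37.1 CPM in tumour 05 through 55.4 to 82.9 in tumour 12. Pfas (ENSMUSG00000020899, chr11:68985701-69008460), which adds an amide nitrogen from glutamine, ranged from 14.7 CPM in tumour 04 through 20.1 to 32.4 in tumour 13. All 3 were high in tumour 12, whereas tumour 13 was high for Gart and Pfas but below the median for Ppat at 21.7 CPM. Paics (ENSMUSG00000029247, chr5:76951302-76967509), the bifunctional enzyme of the following carboxylation and ligation, ranged from 81.4 CPM in tumour 13 through 116 to 159 in tumour 12. Atic (ENSMUSG00000026192, chr1:71557156-71579403), which closes the ring to IMP with a folate-borne formyl group, ranged from 59.4 CPM in tumour 04 through 69.1 to 108 in tumour 13. Tumour 13 therefore held both the highest Atic and Pfas and the lowest Paics.

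Impdh1 (ENSMUSG00000003500, chr6:29200436-29216364) and Impdh2 (ENSMUSG00000062867, chr9:108560436-108565577) encode the IMP dehydrogenases, which commit IMP to guanine nucleotides. Impdh1 ranged from 13.4 CPM in tumour 11 through 24.4 to 56.6 in tumour 05, a 4.21-fold range. It was high in tumours 05, 06, 09 and 07 (56.6, 46.5, 42.4 and 37.1 CPM) and between 13.4 and 25.7 CPM in the other 6, and 3 of these 4 are the libraries with much structured RNA. Impdh2 ranged from 13.4 CPM in tumour 08 through 19.4 to 28.1 in tumour 12.

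The count of Impdh2 needs care. Of the 1823 stretches of 36 bases, the read length, in its canonical transcript, 1518 (83.3%) also occur elsewhere in the GRCm39 genome, in the processed pseudogene Impdh2-ps on chromosome 8. Impdh2-ps itself was assigned 68.8 CPM in tumour 08, a median of 115 and 143 in tumour 07, which was 5.62 ± 0.709 times the Impdh2 count (SD, n = 10, not corrected for length; lowest 4.84, highest 6.88). How the aligner and counter shared such reads is not given in the sources used here, so the split between gene and pseudogene is uncertain. With both summed, the level was 82.2 CPM in tumour 08, a median of 134 and 170 in tumour 07. Per kilobase of transcript, Impdh1 exceeded Impdh2 alone in 6 of 10 tumours (exact sign-flip permutation p = 0.668). In CPM not corrected for length, Impdh1 exceeded Impdh2 and its pseudogene summed in 0 of 10 tumours. The order of the isoenzymes is therefore not settled. Paics had 16.1% of such shared stretches and each of the other 8 at most 2.70%.

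**Figure D2:**
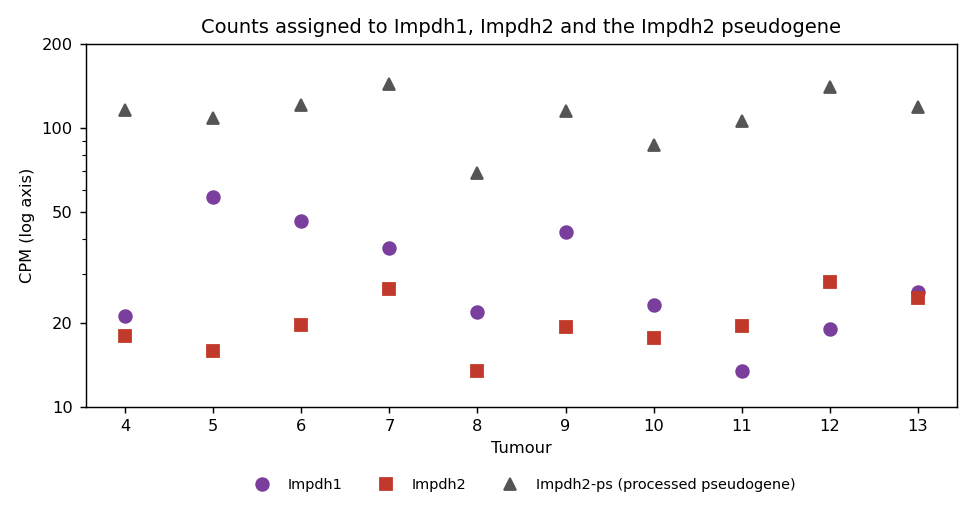
CPM (vertical log axis) of Impdh1, Impdh2 and the processed pseudogene Impdh2-ps in tumours 4 to 13. The pseudogene lies above Impdh2 in all 10 tumours, by 4.84 to 6.88 times, and Impdh1 peaks in tumour 05 at 56.6 CPM. Values are not corrected for length.

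To order the members by level, CPM was divided by the length of the canonical transcript in kilobases. Paics was highest at 34.3 ± 6.74 (SD, n = 10), followed by Atic at 23.3 ± 4.83, Gart at 16.3 ± 3.91 and Umps at 15.5 ± 3.56. Impdh1 (12.6 ± 5.78), Impdh2 (10.9 ± 2.53), Dhodh (9.67 ± 1.73) and Cad (8.87 ± 2.99) came next, and Ppat at 6.20 ± 1.43 and Pfas at 3.11 ± 0.815 were lowest. Each of the 9 neighbouring pairs was tested over the 10 tumours with an exact sign-flip permutation test (two-sided, not adjusted). Paics exceeded Atic in 9 of 10 tumours (0.56 ± 0.40 on the log2 scale, SD, exact p = 0.00586). Atic exceeded Gart, Cad exceeded Ppat and Ppat exceeded Pfas in 10 of 10 tumours, each with exact p = 0.00195, which is the smallest this test can give. The 5 pairs from Gart down to Cad did not differ beyond their spread, with exact p between 0.127 and 0.668. Those with Impdh2 use its uncertain count. The order depends on the length used: per union of all annotated exons Umps moved from place 4 to 2 and Cad from 8 to 4, and per stretch of 36 bases found nowhere else Impdh2 moved from place 6 to 1. Paics was in place 1 or 2 and Pfas in place 10 under all 3 lengths.

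Tumours differed in how many members they held at high levels. Tumour 12 was among the 3 highest tumours for 9 of 10 genes, tumours 09 and 13 for 6 each and tumour 06 for 4. Tumour 07 was among the 3 lowest for 7 genes, tumour 05 for 6, and tumours 04 and 11 for 5 each. In tumours 04 and 11 all 10 genes were below their own mean log2 CPM. The mean deviation of the 10 genes ran from -0.24 in tumour 04 to 0.31 in tumour 12 on the log2 scale. Tumours 12 and 13 are also the deepest libraries, and tumour 07 is the shallowest. Tumours 12 and 13 share their tag with tumour 11, in which all 10 genes were below their mean. Across tumours, log2 total counts and log2 CPM were related for Pfas (r = 0.83, permutation p = 0.00247, rho = 0.77, permutation p = 0.0132) and Atic (r = 0.79, permutation p = 0.00769, rho = 0.64, permutation p = 0.0550), as well as for Umps (r = 0.69, permutation p = 0.0268, rho = 0.28, permutation p = 0.427) and Gart (r = 0.68, permutation p = 0.0289, rho = 0.55, permutation p = 0.104), 4 of 10 genes examined. Without tumours 12 and 13 r was 0.57 for Pfas (exact permutation p = 0.142), 0.35 for Atic (exact permutation p = 0.397), -0.25 for Umps (exact permutation p = 0.545) and 0.25 for Gart (exact permutation p = 0.548), so those of Umps, Gart and Atic rest on these 2 tumours and that of Pfas rests on them in part. For Impdh2 r went from 0.27 (permutation p = 0.451, rho = 0.09, permutation p = 0.811) to -0.78 without them (exact permutation p = 0.0233). Over all 12462 genes 5.91% had an r with depth above 0.6, against these 4 of 10 members. Depth and tumour cannot be told apart here.

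The 3 tag families were then compared with edgeR's quasi-likelihood test across all 12462 genes, in which 1 gene passed an adjusted p of 0.05 (0.00802%). None of the 10 members did, and 0 of 10 had an unadjusted p under 0.05, against 14% of all genes. DESeq2 also called 0 of 10 members, against 4.08% of all genes. Gart had the lowest unadjusted p among the members, 0.0857 (adjusted p = 0.421), with a mean of 48.3 CPM in the 3 RMH4 tumours, 50.4 in the 2 RMH18 tumours and 66.6 in the 5 RMH35 tumours. The RMH35 values (55.0 to 82.9) overlapped those of RMH4 (37.1 to 63.4) and lay above both of RMH18 (46.4 and 54.3). Dhodh and Ppat were likewise highest on average in RMH35, at 22.9 and 27.7 CPM, and lowest in RMH18, at 16.6 and 19.7 CPM, with adjusted p of 0.435 and 0.509. Paics was nearly level, at 124, 119 and 119 CPM in RMH4, RMH18 and RMH35.

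To see whether the enzymes followed growth, each gene was regressed on a proliferation score, the mean log2 CPM of 20 cell cycle genes. The score ran from 3.60 in tumour 05 to 4.94 in tumour 08. None of the 10 members passed (0% of all genes did in edgeR, and 0.433% in DESeq2, again 0 members). In edgeR, 1 member, Pfas, had an unadjusted p under 0.05, against 5.34% of all genes. Pfas rose by 0.76 ± 0.21 log2 CPM per unit of score (SE, unadjusted p = 0.00404, adjusted p = 0.489). Over the 10 tumours its r was 0.82 (permutation p = 0.00379) and rho 0.92 (permutation p = 0.00058), and r was 0.89 without tumours 05 and 08 (exact permutation p = 0.00355). As Pfas is the member with the smallest p and the tumours are the same, this is no independent check. With each tag's mean subtracted r was 0.93, and among the 7 tumours with little structured RNA it was 0.74. The subtraction leaves tumour 04 no deviation and gives the 2 tumours of a shared tag opposite values. Here and below, such an r therefore rests on fewer independent values than 10. Gart had a slope of 0.51 ± 0.26 (adjusted p = 0.932), which was 1.05 without tumour 08 (unadjusted p = 0.00271, adjusted p = 0.490) and 0.34 without tumour 05 (unadjusted p = 0.242), and the other 8 slopes lay between -0.43 ± 0.48 for Impdh1 and 0.47 ± 0.37 for Cad.

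A second score took 20 ribosome biogenesis genes, another process that MYC drives. It ran from 5.61 in tumour 08 to 6.32 in tumour 06. None of the 10 members passed, against 0.0241% of all genes in edgeR and 0.481% in DESeq2, where 0 members passed too. Cad, with 1.80 ± 0.45 log2 CPM per unit of score (SE, unadjusted p = 0.00196, adjusted p = 0.374), was the 1 member with an unadjusted p under 0.05, against 7.58% of all genes. Its r was 0.79 (permutation p = 0.00888) and rho 0.67 (permutation p = 0.0383), again for the member with the smallest p and in the same tumours. Tumour 06 held the highest value of both, and without tumours 06 and 08 r was 0.63 (exact permutation p = 0.0939). The slope was 1.86 without tumour 06 (unadjusted p = 0.0670) and 1.93 without tumour 08 (unadjusted p = 0.00357). With the tag as a block the slope was 1.61 with an unadjusted p of 0.0901. With each tag's mean subtracted r was 0.64 and among the 7 tumours with little structured RNA 0.78. Atic came next at 0.89 ± 0.41 (unadjusted p = 0.0532, adjusted p = 0.664, r = 0.62), and its slope was 1.47 without tumour 06 (unadjusted p = 0.0820). The other 8 slopes lay between 0.19 ± 0.54 for Umps and 1.72 ± 0.87 for Impdh1.

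**Figure D3:**
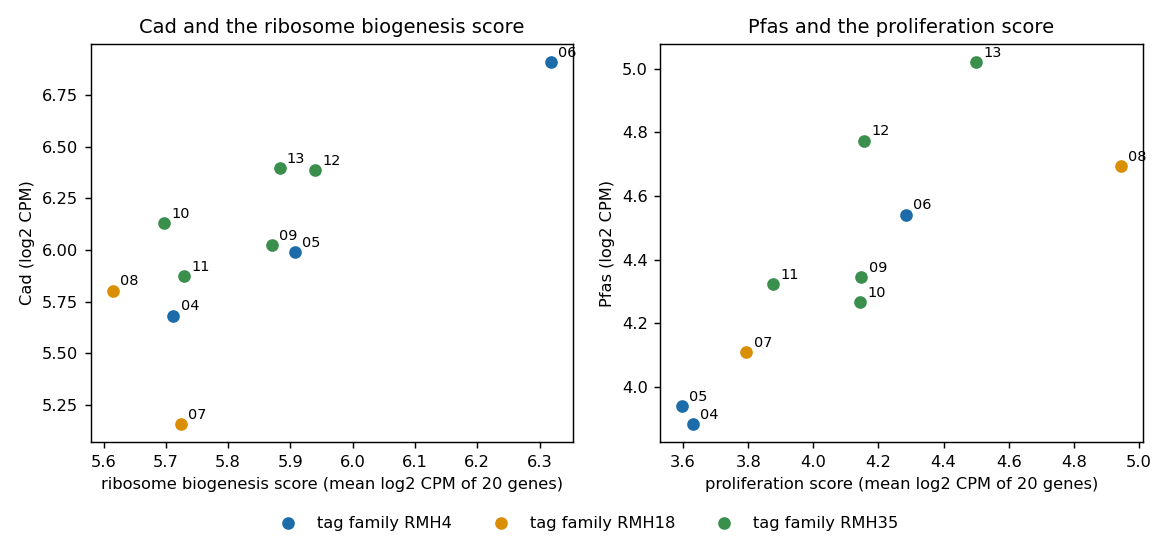
Log2 CPM of Cad against the ribosome biogenesis score (left) and of Pfas against the proliferation score (right), each score being the mean log2 CPM of 20 genes, with 1 point per tumour and colours for the tag families. Tumour 06 stands alone at the upper right of the left panel, with a score of 6.32, and Pfas rises with the score from tumours 04 and 05 to tumour 13, with tumour 08 highest in score.

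Regression on mouse Myc, the endogenous gene (60.1 CPM in tumour 04 to 136 in tumour 05), gave no call among the members (0% of all genes in edgeR and 1.73% in DESeq2, with 0 members). All rows of the table are mouse genes, so the human MYC transgene has no row, and how many of its reads fell on mouse Myc was not tested. Impdh1 had a slope of 1.07 ± 0.45 (SE, unadjusted p = 0.0356, adjusted p = 0.304) and was the 1 member with an unadjusted p under 0.05, against 14.9% of all genes. This slope was 0.78 without tumour 05 (unadjusted p = 0.318) and 0.17 with the tag as a block (unadjusted p = 0.850). Cad had a slope of 0.82 ± 0.42 (unadjusted p = 0.0774, adjusted p = 0.395), and the other 8 lay between -0.33 ± 0.33 (Impdh2) and 0.30 ± 0.30 (Atic). For Cad r with Myc was 0.51 (permutation p = 0.129, rho = 0.64, permutation p = 0.0542). It was 0.89 without tumours 04 and 05, the lowest and highest in Myc (exact permutation p = 0.00590), but 0.02 with each tag's mean subtracted. The slope of Cad on Myc was likewise 1.87 without tumour 05 (unadjusted p = 0.000939, adjusted p = 0.468), 0.50 without tumour 06, 0.54 without tumour 07 and 0.02 with the tag as a block. On a score of 18 stroma and immune genes, edgeR called 2.78% of all genes and 0 of 10 members, none with an unadjusted p under 0.05 (10.8% of all genes), and DESeq2 called 4.37% and 0 members. The 10 slopes lay between -0.22 ± 0.16 for Pfas and 0.38 ± 0.26 for Impdh1.

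Members were next compared with each other. Of the 45 pairs, 36 had r above 0 and 9 below, with a median of 0.34, and 12 (26.7%) had r above 0.6. Over all pairs of tested genes the median r was -0.001 and 5.99% exceeded 0.6. The pairs share genes and the same 10 tumours, so these counts are a description. The pairs described next, other than Ppat with Paics, Cad with Umps or Dhodh, and Impdh1 with Impdh2, were chosen after their values were seen. In the whole-table fits with each member as the predictor, 0 of the 90 ordered pairs passed an adjusted p of 0.05, the lowest being 0.117, while 26 of 90 (28.9%) rose with an unadjusted p under 0.05 and 0 fell. With Gart as predictor 6 members rose in this way (7.7% of all genes), with Umps 4 (3.67%), with Atic 4 (3.78%), with Pfas 3 (5.74%) and with Ppat 3 (3.06%). With Cad 2 rose (3.81%), with Dhodh 2 (4.86%), with Paics 1 (1.76%), with Impdh2 1 (2.63%) and with Impdh1 0 (10.5%).

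**Figure D4:**
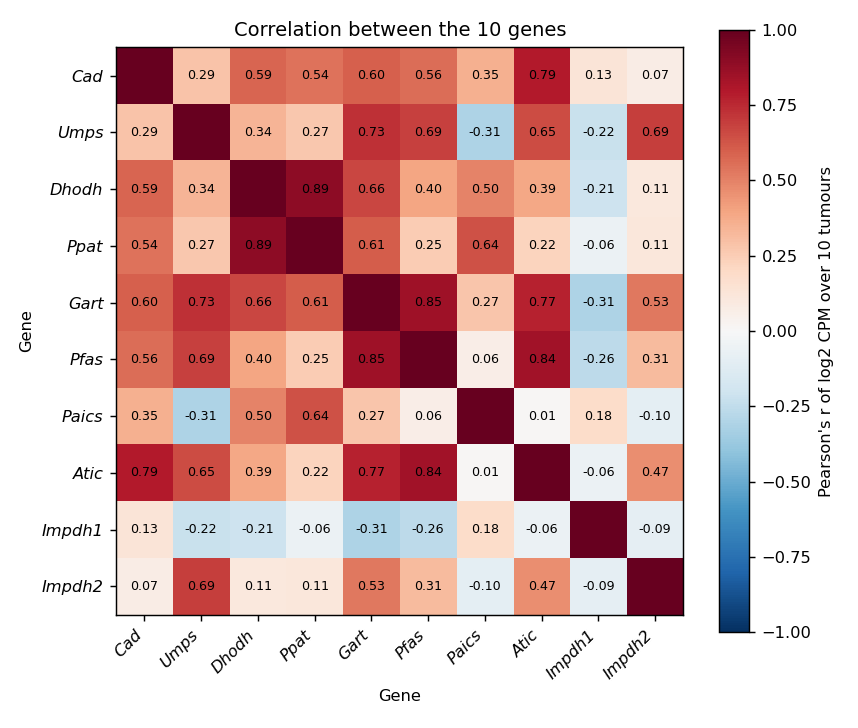
Pearson's r of log2 CPM over 10 tumours for each pair of the 10 genes (colour scale from -1 to 1, value in each cell). Gart, Pfas, Atic and Umps form a block of r between 0.65 and 0.85, Dhodh and Ppat reach 0.89, and the row of Impdh1 runs from -0.31 to 0.18. Without the deepest libraries, tumours 12 and 13, r between Gart, Pfas, Atic and Umps lay between -0.11 and 0.76.

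The closest pair joined the 2 routes: Dhodh of pyrimidine and Ppat of purine synthesis had r = 0.89 (permutation p = 7.0e-05) and rho = 0.92 (permutation p = 0.00056). Without tumours 07 and 12 r was 0.88 (exact permutation p = 0.00382). It was 0.89 with each tag's mean subtracted and 0.91 among the 7 tumours with little structured RNA, and adjusted p over all genes was 0.347 with Dhodh and 0.650 with Ppat as predictor. Among the 12461 other genes Dhodh ranked 4 by r with Ppat, and Ppat ranked 11 by r with Dhodh. Gart and Pfas followed with r = 0.85 (permutation p = 0.00202, rho = 0.84, permutation p = 0.00352), and r was 0.82 without tumours 05 and 12 (exact permutation p = 0.0132). Adjusted p over all genes was 0.117 with Gart and 0.213 with Pfas as predictor. Pfas and Atic had r = 0.84 (permutation p = 0.00232, rho = 0.85, permutation p = 0.00298), which fell to 0.66 without tumours 04 and 13 (exact permutation p = 0.0781), and Cad and Atic had r = 0.79 (permutation p = 0.00441, rho = 0.79, permutation p = 0.00889) and 0.87 without tumours 06 and 07 (exact permutation p = 0.00580). Their adjusted p over all genes lay between 0.236 and 0.475. The pairs of Umps with Pfas and with Atic (r = 0.69 and 0.65) fell to 0.12 and -0.11 without the deepest libraries, tumours 12 and 13. In that setting Gart with Umps went from 0.73 to 0.59 and Gart with Atic from 0.77 to 0.57. Pfas with Atic went from 0.84 to 0.62 and Gart with Pfas from 0.85 to 0.76. Gart, Pfas, Atic and Umps were also the members with an r above 0.6 with log2 total counts.

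Ppat and Paics lie head to head on chromosome 5 and overlap by 277 bases in RefSeq (chr5:76951302-76951578), and are known as a gene pair with a common bidirectional promoter. Their r was 0.64 (permutation p = 0.0471) with rho of 0.76 (permutation p = 0.0151), and without tumours 09 and 12 r was 0.40 (exact permutation p = 0.326). With each tag's mean subtracted it was 0.90, and adjusted p over all genes was 0.716 with Ppat and 0.999 with Paics as predictor. The ratio of Paics to Ppat in CPM, not corrected for length and read only between tumours, was 3.75 in tumour 13 at the lowest and 6.11 in tumour 08 at the highest. It was 4.58, 5.85, 5.57, 5.94 and 6.11 in tumours 04 to 08, and 4.21, 3.77, 5.04, 4.84 and 3.75 in tumours 09 to 13. Reads in the overlap cannot be told apart unless counting used the strand, and the setting was not stated. Within the pyrimidine route, Cad and Umps had r = 0.29 (permutation p = 0.413, rho = 0.43, permutation p = 0.218) and Cad and Dhodh 0.59 (permutation p = 0.0711, rho = 0.58, permutation p = 0.0886). Without tumours 06 and 07 r became 0.77 for Cad and Umps (exact permutation p = 0.0225) and 0.61 for Cad and Dhodh (exact permutation p = 0.105). Without the deepest libraries, tumours 12 and 13, r was -0.10 for Cad and Umps and 0.55 for Cad and Dhodh, and without tumour 13 alone it was 0.12 for Cad and Umps. The isoenzymes Impdh1 and Impdh2 had r = -0.09, given as a description only, since Impdh1 falls into 4 high and 6 low tumours. With each tag's mean subtracted it was 0.63.

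On some chromosomes the median of the other tested genes was shifted in a tumour where a member was highest or lowest. In tumour 07 the median deviation of the 782 other tested genes on chromosome 5 from the other tumours was -0.24 on the log2 scale, beside -0.97 for Cad, -0.50 for Ppat and -0.20 for Paics, and on chromosome 8 it was -0.23, beside -0.57 for Dhodh. In tumour 13 chromosome 1 stood at 0.25 beside 0.57 for Atic, and chromosome 11 at 0.25 beside 0.70 for Pfas. In tumour 11 chromosome 6 stood at -0.21 beside -1.17 for Impdh1. The gene deviated further than its chromosome in each of these cases but that of Paics. Elsewhere the directions were opposite. In tumour 12, where Ppat (0.49) and Paics (0.48) were highest and Cad stood at 0.39, chromosome 5 was at -0.16. In tumour 13 chromosome 8 was at -0.23 with Dhodh at 0.02, and in tumour 07 chromosome 11 was at 0.16 with Pfas at -0.31. With the chromosome median subtracted, Dhodh and Ppat had r = 0.83 and Cad and Atic 0.93, while Umps and Pfas fell from 0.69 to 0.46 and Umps and Atic from 0.65 to 0.47. Across the 10 tumours the member and its chromosome median had r between 0.20 for Impdh2 and 0.71 for Gart, with Umps, also on chromosome 16, at 0.67. Of the 12 pairs with r above 0.6, 9 were above it after this step too, with 3 other pairs. The part of these shifts in the levels was otherwise not tested.

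Over the 10 tumours Impdh1 had r between -0.31 and 0.18 with the other 9 members. This range depends on the setting: it was -0.24 to 0.64 with each tag's mean subtracted, the highest being with Umps, and -0.06 to 0.51 among the 7 tumours with little structured RNA, the highest being with Ppat. Used as the predictor in edgeR, it was the 1 member of 10 whose fit called other genes: 99 of 12461 (0.794%), of which 61 rose (0.49%) and 38 fell (0.305%). None was a member (0 of 9, with 0 at an unadjusted p under 0.05 and 0 in DESeq2, which called 6.07% of all genes). The edgeR fits on the other 9 members called 0% of all genes, and DESeq2 was not run on these. The 8 genes with the smallest adjusted p, all 0.0136, were looked up after their values were seen. Those that rose with Impdh1 were Hmox1 (heme oxygenase, induced by oxidative stress; 2.16 ± 0.26 log2 per log2, SE), Atf3 (a stress transcription factor; 2.16 ± 0.28), Btg2 (2.13 ± 0.27), Gadd45a (a growth arrest and DNA damage gene; 1.84 ± 0.25), Ppp1r15a (which reverses the translation block of the stress response; 1.80 ± 0.22) and the septin gene Septin11 (0.89 ± 0.11). Vwce (-0.94 ± 0.12) and Maob, the mitochondrial monoamine oxidase B (-0.71 ± 0.10), fell.

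**Figure D5:**
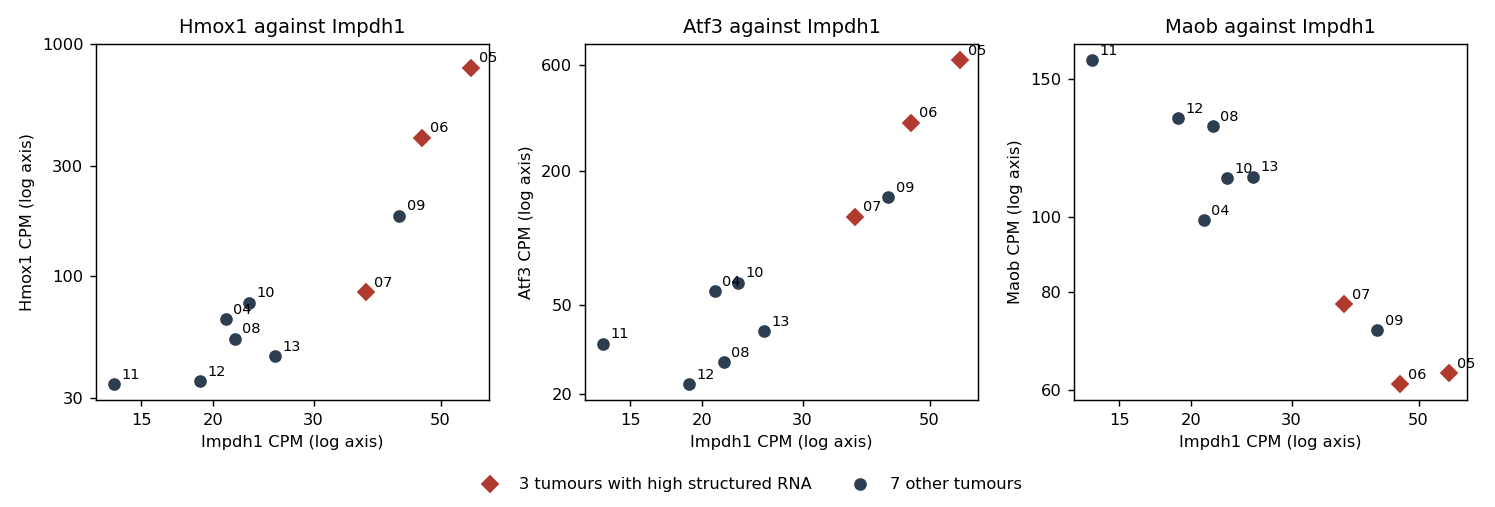
CPM of Hmox1, Atf3 and Maob against CPM of Impdh1 (all axes log), with 1 point per tumour and diamonds for the 3 tumours with high structured RNA. Tumours 05, 06, 07 and 09 hold the highest Impdh1, at 37.1 to 56.6 CPM, together with the 4 highest values of Hmox1 and Atf3 and the 4 lowest of Maob.

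Hmox1 itself was at 34.3 CPM in tumour 11, a median of 71.4 and 792 in tumour 05, and Atf3 at 22.1 CPM in tumour 12, a median of 60.3 and 628 in tumour 05. Both were highest in tumours 05, 06 and 09. The calls were not stable: without tumour 05 or without tumour 06 edgeR called 0 genes. Without 1 of the other tumours it called between 9 (tumour 12) and 302 (tumour 07). With the tag as a block it called 0, and among the 7 tumours with little structured RNA 0. With more terms or fewer tumours a fit calls less readily, so these last counts cannot show what the calls rest on. In those 7 tumours, with Impdh1 at 13.4 to 42.4 CPM, all 99 genes kept their direction and 85 had an unadjusted p under 0.05, against 10.7% of all 13125 genes tested in that set. The slope over all 10 tumours was more than 1.5 times that in the 7 for 30 of the 99, among them Ppp1r15a (0.92 in the 7), Gadd45a (1.14), Atf3 (1.40) and Btg2 (1.37), whereas Maob had -0.66 and Vwce -0.95. The 99 genes were chosen for this pattern and the 7 are among the tumours that gave the calls, so this is no independent check. The part of the structured RNA, the tag and the other cells of the tissue in this pattern was not tested.

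By the correlation of log2 CPM over the 10 tumours, the genes whose pattern was most like each member were named without a test, each being the top 3 of 12461. For Cad these were Aen, Tspan4 and Xpo5 (r = 0.95, 0.94 and 0.94), for Umps Snap47, Tubgcp4 and Nufip2 (0.93, 0.93 and 0.92) and for Dhodh Ints13, Gnptab and Inpp5f (0.95, 0.94 and 0.92). For Ppat they were Ccnc, Acadsb and Ints13 (0.92, 0.91 and 0.90), for Gart Psmg2, the pseudogene Gm3150 and Thyn1 (0.95, 0.95 and 0.94) and for Pfas Pigs, Nsl1 and Trim37 (0.95, 0.95 and 0.94). Dhodh and Ppat thus shared Ints13. For Paics they were Wdr83os, Mrps31 and Thumpd3 (0.90, 0.89 and 0.88), for Atic Gemin5, Dhx33 and Fam234b (0.96, 0.96 and 0.94), for Impdh1 Abi1, Qrich1 and Septin11 (0.96, 0.94 and 0.94) and for Impdh2 Rpl22l1, the pseudogene Pphln1-ps1 and Ppid (0.91, 0.89 and 0.88).

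The rest of the pathway was read from lists. Adsl, which acts both on the way to IMP and on the branch to adenine nucleotides, hardly varied, from 65.7 CPM in tumour 05 through 75.9 to 84.6 in tumour 11, with an SD of 0.11 on the log2 scale that only 0.489% of tested genes undercut. Adss2, of the branch to adenine nucleotides, ranged from 66.8 through 95.7 to 124 CPM, and Gmps, which follows the IMP dehydrogenases on the branch to guanine nucleotides, from 25.0 through 28.9 to 41.3. Ctps1, which makes cytidine nucleotides, ranged from 16.6 through 22.9 to 33.4 CPM and like Cad was highest in tumour 06. Glul, the glutamine synthetase and a β-catenin target, ranged from 5411 CPM in tumour 09 to 14855 in tumour 04. Cps1, the carbamoyl phosphate synthetase of the urea cycle, ranged 48.2-fold, from 4.53 CPM in tumour 05 through 30.2 to 218 in tumour 12, against 3.37-fold for Cad, which makes the same product for pyrimidines. Mki67, a marker of cycling cells, ranged from 28.1 CPM in tumour 04 through 53.5 to 100 in tumour 08. In none of the 4 slope tests did a gene of the lists for other de novo steps (14 tested), one-carbon supply (13), deoxynucleotide synthesis (7), salvage (12), breakdown (10) or glutamine and carbamoyl phosphate (6) pass an adjusted p of 0.05 in either direction in edgeR. On the proliferation score, where 5.34% of all genes had an unadjusted p under 0.05, so did 4 genes of these lists, a share close to that. They were named after their values were seen. Their slopes were above 0 for 3 of the 7 deoxynucleotide genes, Rrm1 with 0.86 ± 0.19 (adjusted p = 0.216), Tyms with 0.81 ± 0.23 (adjusted p = 0.568) and Dtymk with 0.45 ± 0.17 (adjusted p = 0.830), and below 0 for Upp1 of the salvage list, with -2.08 ± 0.95 (adjusted p = 0.929). Genes of these lists had an unadjusted p under 0.05 on the other scores too. Among them were 3 of the 13 one-carbon genes on ribosome biogenesis (7.58% of all genes) and 2 on Myc (14.9%).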

How the data were processed

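RNA was extracted with Trizol and polyadenylated RNA was made into stranded libraries, per the labels, and the study's methods give paired-end reads of 36 bases. The authors deposited 1 table of raw counts per mouse Ensembl gene. The submitters' processing notes name TopHat2, HTSeq and GRCm38, whereas the study's methods describe STAR on GRCm39 for single-end reads. The strand setting is not given in the sources used here. The 5 summary lines were left out, as were 9 columns that could not be matched to a sample. Reads without a unique alignment were 45.4% to 57.9% of the table.

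The 10 members, the lists and the tests were chosen with earlier results of these data known. Counts were filtered with filterByExpr, scaled with TMM factors (0.927 to 1.11) and tested with the quasi-likelihood test of edgeR 4.0.16 (R 4.3.3, limma 3.58.1) over 12462 genes with Benjamini-Hochberg adjustment at 0.05. The slopes are log2 changes per unit of a score, with the SE taken as slope over the root of F. Log2 CPM used a prior count of 2. DESeq2 1.42.0 was an alternative. The scripts were tested on simulated data. Correlations were given permutation p-values (100000 resamples for 10 tumours, all permutations for fewer), two-sided. In all, 40 member and score relations and 45 pairs were computed, and their adjusted p-values are those of the fits over all genes. Symbols, lengths and repeated stretches came from GENCODE M39 on GRCm39 and coordinates and promoters from RefSeq on GRCm38.p6, and 34199 of 39179 identifiers had a symbol. Of 163 listed genes 160 were matched. Named genes were all members, Adsl, Adss2, Gmps, Ctps1, Glul, Cps1, Myc and Mki67, up to 3 listed genes that passed a slope test, the 3 most correlated genes per member, and the pairs Ppat and Paics, Impdh1 and Impdh2, Cad and Umps, and Cad and Dhodh. Alb was named as a hepatocyte marker, and other genes and pairs are marked as chosen after their values were seen. Alternatives were another scaling, total counts, no filter, another prior count, DESeq2, the tag as a block, a median score and leaving out each tumour. Other tools were Python 3.11.15, numpy 2.4.6, pandas 2.3.3, scipy 1.17.1 and matplotlib 3.10.9.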

Additional observations from a re-analysis of the deposited data

Results flagged for a closer look

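The ribosome biogenesis score stood out in 1 library: the gap between tumour 06 (6.32) and the next tumour, 12 (5.94), was 0.538 of the whole range over the 10 tumours. Of 16 measures examined in this way, including the level of each of the 10 members, this was the only one past the limit, and chance passes about 1 in 20. Tumour 06 is also the tumour with the highest Cad, at 120 CPM. Without it the slope of Cad on this score was 1.86 with an unadjusted p of 0.0670 and an adjusted p of 0.912 in edgeR. Its library is 1 of the 3 with much structured RNA, at 48.3 CPM per plain library total, and the part of that in the score was not tested.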

How the results depend on the processing

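None of the 10 members passed an adjusted p of 0.05 for the tag family or any of the 4 slopes in edgeR or DESeq2 under any setting run, and 0 of 90 ordered pairs passed under any scaling or with the tag as a block. Where a fit could hardly call any gene, as on the ribosome biogenesis score, this says nothing about stability. Counts over all genes moved. For the tag family, 1 gene became 27 with no filter and 508 in DESeq2, and 0 to 175 without 1 tumour each. On the proliferation score 0 became 54 in DESeq2. On the ribosome biogenesis score 3 became 0 with total counts, with the tag as a block and with the median over genes, 60 in DESeq2 and 0 to 6 without 1 tumour each. On Myc 0 became 216 in DESeq2, 0 to 107 without 1 tumour each and, chosen after seeing the data, 1 without the 2 deepest tumours. On the stroma and immune score 346 became 545 in DESeq2, 69 with the tag as a block, 137 to 541 without 1 tumour each and, chosen after seeing the data, 70 without the 2 deepest tumours. On Impdh1 99 became 37 with total counts, 0 with the tag as a block, and, chosen after seeing the data, 0 among the tumours with little structured RNA, 756 in DESeq2 and 0 to 302 without 1 tumour each. The cause was not tested. Over all settings the slope of Cad on the ribosome biogenesis score was 1.48 to 1.98 (adjusted p from 0.0878 to 0.912) and that of Pfas on the proliferation score 0.59 to 1.12 (0.167 to 0.998), while the slopes of Impdh1 and Cad on Myc ran from 0.17 to 1.49 and from 0.02 to 1.87. With the tag as a block Cad had an unadjusted p of 0.0901. The r of Impdh1 and Impdh2 ran from -0.25 to 0.12 without 1 tumour each, turning positive without tumour 05 or tumour 12, and that of Cad and Dhodh from 0.24 without tumour 07 to 0.82 without tumour 06. Summing Impdh2 with its pseudogene moved its mean log2 CPM from 4.31 to 7.02. Thinning all libraries to the shallowest gave 12 of 45 pairs above an r of 0.6, 10 of them among the 12 of the full data, and leaving out the 2 deepest gave 8, 6 of them among the 12. The count was 20 in the tumours with little structured RNA, 17 with each tag's mean subtracted and 15 with total counts. All but the last were chosen after seeing the data. No paired analysis was possible because only tumours, 1 group, had usable columns. Slopes on scores that vary little, such as ribosome biogenesis, carry wide errors.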
